A study of Mus musculus with 6 samples.

Results

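Fibril-associated and microfibrillar collagens are the collagens that do not build the striated fibril itself but coat it, link it to its surroundings or form fine filaments and sheets around it. The set held the 10 genes Col6a1, Col6a2, Col6a3, Col8a1, Col12a1, Col14a1, Col15a1, Col16a1, Col18a1 and Col22a1, taken by symbol, out of 33696 genes in the deposited count matrices and out of 44 genes with a collagen symbol. All 10 were detected in each of the 6 libraries.

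Tendon is built from parallel collagen I fibrils that are laid down and maintained by tenocytes, the fibroblasts of the tendon core, while a looser sheath of fibroblasts and vessels wraps the fibril bundles. Collagen VI is assembled from alpha chains into beaded microfilaments that surround each tendon cell. Collagens XII, XIV, XVI and XXII belong to the FACIT group (fibril-associated collagens with interrupted triple helices), which sit on or beside fibrils; collagen XII is known for its abundance in tendon and collagen XXII for its place at myotendinous junctions. Collagen VIII is a short-chain collagen that forms open networks, and collagens XV and XVIII are the multiplexins, which carry glycosaminoglycan chains and lie at basement membranes.

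The cells came from the Achilles tendons of 24 Gli1-CreERT2; Ai9 mice given tamoxifen, in which cells that express Gli1 at the time of induction switch on the Ai9 red fluorescent reporter. Groups of 8 mice were left uninjured or were collected 7 or 21 days after tenotomy (days post injury, dpi), and cells of every group were sorted into reporter-positive (Gli1+) and reporter-negative (Gli1-) fractions. Every sort and time gave 1 Chromium 3′ single-cell library, so all 6 libraries shared the genotype and the tamoxifen, and the sex, strain background and age of the mice behind a given library were not given beyond an equal sex ratio in the cohort. With 1 library per condition there was no test between conditions: intervals below are exact 95% intervals that cover counting error only, and a 2-fold difference (log2 ratio beyond 1 or −1) was used as a fixed size for description.

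Between 7057 and 10882 cells per library were kept, with 53564928 to 107887022 unique molecular identifiers (UMIs, counted transcripts) and median depths of 4297 UMIs per cell in uninjured Gli1- cells and 7858 to 9775 elsewhere. Libraries shared 27 to 75 cell barcodes per pair. Several libraries stood apart. T and NK-like cells made up 41.5% of uninjured Gli1+ cells, and mesenchymal cells were 35.0%, 75.7% and 82.4% of the Gli1+ libraries (uninjured, 7 dpi, 21 dpi) and 53.0%, 80.5% and 69.0% of the Gli1- libraries. Both 21 dpi libraries consisted almost wholly of cells with Xist and no Y-linked transcripts (92.7% and 90.6% of cells), both 7 dpi libraries and the uninjured Gli1- library of cells with Y-linked transcripts or neither (Xist alone in at most 0.0108% of cells), and the uninjured Gli1+ library of both kinds (68.7% Xist alone, 15% Y-linked alone), so the libraries do not match the equal sex ratio the labels give for the cohort, and the 2 uninjured libraries cannot hold cells of the same mice in like shares. For Gli1- cells the change from uninjured to 21 dpi, and in both sorts the change from 7 to 21 dpi, cannot be told apart from the change of sex. Levels are given as UMIs of a gene per 1000000 UMIs of the summed cells (CPM); because 3′ libraries count 1 tag per transcript they were not divided by transcript length. In sums over a whole library, fewer cells of a type and less RNA per cell cannot be told apart.

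Summed over whole libraries, 7 of the 10 genes in Gli1+ cells were more than 2-fold higher at 7 dpi than in uninjured tendon and 1 was lower, beside 13.3% of all measured genes higher and 24.4% lower. At 21 dpi the count was 8 higher and 1 lower in Gli1+ cells (10% and 24.3% of all genes). In Gli1- cells it was 5 higher and none lower at 7 dpi (11.7% and 19.0% of all genes) and 7 higher and 1 lower at 21 dpi (10.5% and 16%). The lower gene was Col22a1 in each case. The mesenchymal share of the libraries moved with these sums, so the genes were next read within mesenchymal cells. These were the clusters named as tenocyte, tendon stem cell, chondrocyte or bone, and the unnamed clusters with Pdgfra of at least 100 CPM.

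Within mesenchymal cells Col6a1, Col6a2, Col12a1 and Col16a1 were higher after injury in both sorts, Col6a3 mainly in Gli1+ cells, Col15a1 and Col22a1 were lower (Col22a1 in Gli1- cells at 7 dpi by under 2-fold and not under every choice of cells), and Col8a1, Col14a1 and Col18a1 differed less or in 1 sort. In Gli1+ mesenchymal cells 5 of 10 genes were more than 2-fold higher at 7 dpi and 3 were lower, beside 12.9% and 18.1% of all genes, and their median log2 ratio was 0.78 against −0.16 over all genes. At 21 dpi 5 were higher and 2 lower (7.27% and 17% of all genes; median 1.05 against −0.29). In Gli1- mesenchymal cells 5 were higher and 1 lower at 7 dpi (13.6% and 13.9%; median 0.81 against −0.06), and 4 were higher and 2 lower at 21 dpi (11.6% and 14.3%; median 0.93 against −0.11). Both times were compared with the same uninjured library. From 7 to 21 dpi, a step that is also a change of sex in both sorts, none of the 10 genes differed by 2-fold in either sort, beside 4.21% of all genes higher and 9.04% lower in Gli1+ cells and 4.67% and 5.81% in Gli1- cells. In Gli1+ cells with Y-linked transcripts alone, 5 rather than 8 genes passed 2-fold at 7 dpi, since Col6a1 (0.97), Col6a2 (0.996) and Col16a1 (0.96) came to lie just under it. No share of all genes was set beside this count. Within 1 sex the direction of the largest ratios was the same: Col12a1 stood at 1.44 and Col22a1 at −4.27 in Gli1+ cells with Xist alone at 21 dpi, and Col12a1 at 3.37 in Gli1- cells with Y-linked transcripts alone at 7 dpi. No within-sex value could be had for Gli1- cells at 21 dpi.

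Collagen VI came from its 3 major chain genes. Col6a1 and Col6a2 encode the short alpha 1 and alpha 2 chains, which lie side by side on mouse chromosome 10, and Col6a3 encodes the long alpha 3 chain on chromosome 1. Because Col6a1 and Col6a2 had almost the same pattern while Col6a3 departed from it in uninjured tendon, the 250 bases before their RefSeq starts are shown (GRCm38.p6, 5′ to 3′ along the gene, at chr10:76726045-76726294, chr10:76623405-76623654 and chr1:90843972-90844221, all on the minus strand). Capitals mark GC boxes, the letters GGGCGG on either strand.

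Col6a1: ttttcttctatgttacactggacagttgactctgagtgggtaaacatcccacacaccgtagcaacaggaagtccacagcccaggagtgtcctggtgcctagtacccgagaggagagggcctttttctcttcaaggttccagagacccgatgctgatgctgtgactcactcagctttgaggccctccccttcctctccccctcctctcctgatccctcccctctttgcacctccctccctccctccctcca

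Col6a2: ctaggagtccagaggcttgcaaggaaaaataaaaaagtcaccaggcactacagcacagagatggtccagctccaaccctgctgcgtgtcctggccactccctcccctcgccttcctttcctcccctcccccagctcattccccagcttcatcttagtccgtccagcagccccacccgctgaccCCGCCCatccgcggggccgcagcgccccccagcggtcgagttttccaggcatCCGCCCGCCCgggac

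Col6a3: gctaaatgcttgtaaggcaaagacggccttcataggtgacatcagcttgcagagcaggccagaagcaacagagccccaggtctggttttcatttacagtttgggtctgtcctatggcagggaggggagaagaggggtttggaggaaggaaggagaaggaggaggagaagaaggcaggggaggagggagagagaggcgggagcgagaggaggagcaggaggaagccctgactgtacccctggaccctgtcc

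The Col6a2 window held 3 GC boxes, at 67 to 62, 15 to 10 and 11 to 6 bases before the start, the last pair sharing bases, and its GC content was 64.4%. The Col6a1 and Col6a3 windows held none and had GC contents of 56% and 57.2%. A second RefSeq start of Col6a2 (chr10:76623631-76623880) had 1 GC box and 59.2% GC. Of 32851 mouse promoter windows of this length 32.7% held a GC box and the median GC content was 52.4%. No window of the genes examined held TATAAA (12.4% of all windows) or the E-box CATCTG (14.4%) on either strand. Promoter sequences were found for 7 of the 10 genes, with 9 starts; for Col12a1, Col14a1 and Col22a1 none was found.

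Col6a1 in Gli1+ mesenchymal cells was at 485 CPM before injury, 1063 CPM at 7 dpi and 1152 CPM at 21 dpi. In Gli1- mesenchymal cells it was at 518, 1131 and 1055 CPM. The log2 ratios to uninjured were 1.13 (interval 1.10 to 1.16) and 1.25 in Gli1+ cells and 1.13 and 1.03 in Gli1- cells, so both sorts held about the same level at each time. Col6a2 went from 314 to 679 and 678 CPM in Gli1+ cells and from 355 to 725 and 669 CPM in Gli1- cells, with log2 ratios of 1.11, 1.11, 1.03 and 0.91. Over 52 groups of cells (a type in a library), the Pearson correlation of log2 levels between Col6a1 and Col6a2 was 0.99, a description over groups that share libraries and depth.

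Col6a3 differed between the sorts before injury. It was at 253 CPM in uninjured Gli1+ mesenchymal cells and at 488 CPM in uninjured Gli1- cells, a log2 difference of −0.95 (interval −0.99 to −0.91). At 7 dpi the levels were 625 and 618 CPM and at 21 dpi 636 and 593 CPM, so the sorts were close after injury. Its log2 ratio to uninjured was therefore 1.30 and 1.33 in Gli1+ cells and 0.34 and 0.28 in Gli1- cells. As a share of collagen VI UMIs, Col6a3 made up 24.0% in uninjured Gli1+ and 35.8% in uninjured Gli1- mesenchymal cells. Among the types with at least 50 UMIs of each of the 3 chains, the Col6a3 share was lowest in tenocyte-like cells of uninjured tendon (19.0% in Gli1+ and 20.8% in Gli1- cells) and highest in mural-like cells, the pericytes and smooth muscle of vessel walls (33.3% in uninjured Gli1+ and 45.5% in uninjured Gli1- cells). After injury the tenocyte-like shares were 21.5% and 25.1% in Gli1+ cells and 22.3% and 24.97% in Gli1- cells.

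Collagen VI was found in all fibroblast classes, and tenocyte-like cells were close to the sum of the others in Col6a1. Tenocyte-like cells, named from Scx, Tnmd, Fmod, Thbs4, Mkx and Kera, held 506, 1054 and 1224 CPM of Col6a1 in Gli1+ cells, where all other mesenchymal cells held 477, 1064 and 1119 CPM. The log2 ratios of tenocyte-like over other mesenchymal cells lay between −0.01 and 0.13 for Col6a1 in the 6 libraries. Mesenchymal cells with UMIs of both Tnmd and Scx, set against those with neither, gave ratios from −0.33 (Gli1- uninjured) to 0.45 (Gli1- 21 dpi). At clustering resolution 0.3 the Gli1+ ratio at 21 dpi was −0.52. Col6a3 was the exception in uninjured tendon, at 194 against 276 CPM in Gli1+ cells and 229 against 503 CPM in Gli1- cells (log2 ratios of −0.51 and −1.13). Its tenocyte-like level was also the lower one at 7 dpi. For the Gli1+ sort it was 469 CPM, beside 565 CPM in stem cell-like and 658 CPM in the remaining mesenchymal cells. For the Gli1- sort these levels were 568, 750 and 618 CPM. At 21 dpi the tenocyte-like Col6a3 level lay between those of the same classes in both sorts. At 21 dpi the highest Col6a1 level was in the chondrocyte- and bone-like cells, at 1468 CPM (Gli1+) and 1142 CPM (Gli1-), above every other type by their counting intervals. Single classes differed more, in a description chosen after seeing the values: at 21 dpi the 143 Gli1- stem cell-like cells held 550 CPM of Col6a1 where Gli1- tenocyte-like cells held 1058 CPM, and in uninjured Gli1- tendon the stem cell-like and the remaining mesenchymal cells held 426 and 688 CPM.

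Among the FACIT genes of the set, Col12a1 rose most in mesenchymal cells at 7 dpi in both sorts and at 21 dpi in Gli1- cells. Its product binds fibril surfaces and interacts with tenascin-X and decorin. In mesenchymal cells it was at 334, 965 and 732 CPM in Gli1+ cells (uninjured, 7 dpi, 21 dpi) and at 80.3, 756 and 646 CPM in Gli1- cells. The log2 ratio to uninjured was 1.53 and 1.13 (1.10 to 1.17) in Gli1+ cells, and in Gli1- cells it was 3.23 (3.18 to 3.29) and 3.01 (2.95 to 3.06). Before injury the Gli1+ level was above the Gli1- level by a log2 ratio of 2.06 (1.99 to 2.12); at 7 dpi it was 965 against 756 CPM.

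Before injury the Col12a1 level of tenocyte-like cells was far above that of other mesenchymal cells, and after injury the levels lay within 2-fold of each other. In uninjured tendon tenocyte-like cells held 965 CPM against 82.2 CPM in other mesenchymal cells of the Gli1+ library, and 595 against 49.6 CPM in the Gli1- library. The log2 ratios were 3.55 (3.47 to 3.64) and 3.58 (3.48 to 3.69). At 7 dpi the pairs were 888 against 969 CPM and 692 against 759 CPM, and the ratio was −0.13 in both sorts. At 21 dpi the pairs were 908 against 650 CPM in Gli1+ cells (log2 ratio 0.48) and 500 against 871 CPM in Gli1- cells (−0.80). The direction after injury depended on how the cells were chosen: mesenchymal cells with UMIs of both Tnmd and Scx, set against those with neither, gave 3.35 and 4.36 in uninjured tendon but 0.40 (Gli1+, 7 dpi), 0.98 (Gli1-, 7 dpi) and 0.78 (Gli1-, 21 dpi). Within tenocyte-like cells themselves Col12a1 stayed within 2-fold of uninjured in all 4 comparisons, with log2 ratios of −0.12 and −0.09 in Gli1+ cells and 0.22 and −0.25 in Gli1- cells. Tenocyte-like cells held 79.6%, 4.92% and 37.9% of all Gli1+ Col12a1 UMIs and 38.9%, 3.64% and 44.1% of all Gli1- Col12a1 UMIs, so they held most of the uninjured UMIs in the Gli1+ library only.

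In the tendon stem cell-like class, named from Tppp3, Ly6a, Pdgfra, Pi16, Dpp4 and Cd34, Col12a1 was at 86.7, 449 and 345 CPM in Gli1+ cells and at 40.4, 140 and 72.3 CPM in Gli1- cells. Blood endothelial-like cells, taken as the background type, held 6.61, 213 and 35.9 CPM and 8.37, 130 and 51.2 CPM, so the Gli1- stem cell-like levels after injury could not be told from this background by their counting intervals. The higher level after injury was in the remaining mesenchymal cells, neither tenocyte-like nor stem cell-like, at 67.6, 1136 and 1121 CPM (Gli1+) and 60.04, 766 and 866 CPM (Gli1-). These are mostly clusters that appear after injury: the largest 7 dpi clusters held 1152 CPM in Gli1+ and 1059 CPM in Gli1- cells, and the clusters led by Saa3 at 21 dpi held 1230 and 1043 CPM. In Gli1- cells at 7 dpi this level was that of cluster 4 (3303 of 7171 remaining mesenchymal cells, 59437 UMIs), while cluster 5 (2319 cells, 9191 UMIs) held 344 CPM. Chondrocyte- and bone-like cells at 21 dpi held 1036 and 969 CPM. Thinned to 2000 UMIs per cell, 25.9%, 67.6% and 52.1% of Gli1+ and 8.35%, 53.8% and 46.1% of Gli1- mesenchymal cells had a Col12a1 UMI. The shares in blood endothelial-like cells of the same libraries were 0.562%, 26.1% and 6.35% (Gli1+) and 1.38%, 21.8% and 10.6% (Gli1-), and 24.5% of epidermal-like cells had one in the Gli1+ library at 7 dpi. Whether the UMIs in these types were carried over from other cells or expressed was not tested. Median depths before thinning were 8524, 9271 and 8867 UMIs in Gli1+ mesenchymal cells against 4769, 3178 and 5884 in endothelial ones, and 5795, 11511 and 8990 against 2539, 2220 and 3654 in the Gli1- sort.

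**Figure D1:**
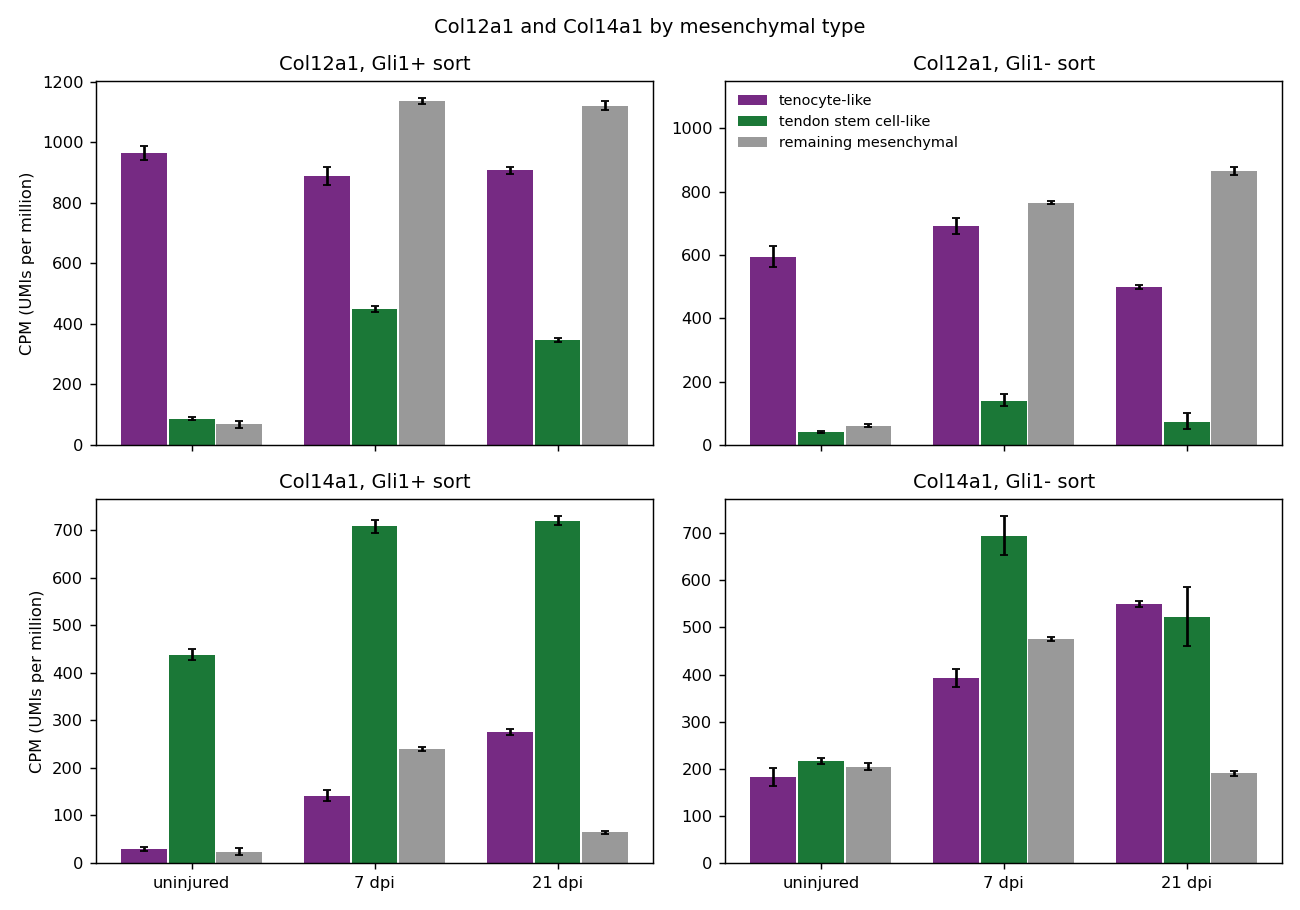
Levels of Col12a1 and Col14a1 in CPM (vertical axis, from 0) in tenocyte-like, tendon stem cell-like and remaining mesenchymal cells, with the 6 libraries side by side and bars for the exact 95% counting interval. Col12a1 is high in tenocyte-like cells of uninjured tendon (965 and 595 CPM) and in the remaining mesenchymal cells after injury (766 to 1136 CPM), while Col14a1 is highest in stem cell-like cells in 5 of the 6 libraries.

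Col14a1 encodes the FACIT collagen closest to collagen XII and was nearly its mirror in uninjured Gli1+ cells. Tenocyte-like cells held 29.7 CPM and stem cell-like cells 438 CPM, and tenocyte-like over all other mesenchymal cells gave a log2 ratio of −3.64 (−3.85 to −3.43). In the uninjured Gli1- library the 2 classes held 181 and 217 CPM, with a tenocyte-like log2 ratio of only −0.22. With cells taken by their own Tnmd and Scx UMIs the ratios were −2.17 (Gli1+) and −1.28 (Gli1-), and with per-cell means −3.08 and −0.13. The distance between the sorts thus depended on how the cells were chosen. The uninjured Gli1- tenocyte-like class is a mix of clusters, described below. After injury the tenocyte-like level was 142 and 275 CPM in Gli1+ cells and 392 and 549 CPM in Gli1- cells, and the stem cell-like level 708 and 720 CPM in Gli1+ cells and 694 and 521 CPM in Gli1- cells. Within tenocyte-like cells the log2 ratio to uninjured was 2.25 (2.02 to 2.49) and 3.21 (3.01 to 3.42) in Gli1+ cells and 1.11 and 1.60 in Gli1- cells.

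Summed over the tenocyte-like class, the balance of the pair moved toward Col14a1. The log2 ratio of Col12a1 to Col14a1 UMIs there was 5.02, 2.65 and 1.72 in Gli1+ cells and 1.71, 0.82 and −0.13 in Gli1- cells, whereas in stem cell-like cells it was −2.34, −0.66 and −1.06 in Gli1+ cells and −2.42, −2.31 and −2.85 in Gli1- cells. Single clusters did not all follow the sum: cluster 7 of Gli1+ cells was at 5.11 before injury and 4.45 at 21 dpi, and cluster 12 of Gli1- cells at 5.02, 3.11 and 3.38, while cluster 2, the other part of the Gli1- class, moved toward Col12a1 (−2.29, −0.15 and −0.19). In thinned uninjured Gli1+ tenocyte-like cells 63.6% had Col12a1 only, 1.79% Col14a1 only and 2.61% both. At 21 dpi 19.9% had both. At 7 dpi both genes were also higher in blood endothelial-like cells of Gli1+ libraries, with Col14a1 at 4.85, 54.2 and 10.8 CPM and Col12a1 at 6.61, 213 and 35.9 CPM. Whether these UMIs were carried over from other cells or expressed was not tested. The part of carried-over UMIs in the 7 dpi tenocyte-like Col14a1 level was not tested either.

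In all mesenchymal cells together Col14a1 was at 272, 340 and 397 CPM in Gli1+ cells and at 209, 473 and 401 CPM in Gli1- cells. Only the Gli1- value at 7 dpi was more than 2-fold above uninjured, with a log2 ratio of 1.18 (1.14 to 1.21). Scaling by trimmed means (TMM) instead of total UMIs brought the ratio at 21 dpi to 1.01 in Gli1+ and 1.12 in Gli1- cells.

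Col16a1, a FACIT collagen of fibrils and fibrillin microfibrils, was at 88.8, 187 and 193 CPM in Gli1+ and at 32.9, 185 and 169 CPM in Gli1- mesenchymal cells. The log2 ratios to uninjured were 1.08 (1.01 to 1.14) and 1.12 in Gli1+ cells, and in Gli1- cells they were 2.49 (2.41 to 2.58) and 2.36 (2.28 to 2.45). As for Col12a1, the sorts differed before injury (log2 ratio of Gli1+ over Gli1- of 1.43, 1.33 to 1.54) and were close afterwards. Tenocyte-like cells held 155 against 62.2 CPM in other mesenchymal cells of uninjured Gli1+ tendon and 108 against 28.4 CPM in the Gli1- library (log2 ratios of 1.32 and 1.93). At 7 dpi these ratios were −0.29 and 0.12, and at 21 dpi 0.66 and 0.42. Stem cell-like cells were more than 2-fold above their uninjured level at both times and in both sorts, with log2 ratios of 1.34, 1.25, 2.11 and 1.40. Over the 52 groups Col16a1 and Col12a1 had a correlation of 0.89.

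Most Col22a1 UMIs were in tenocyte-like cells in every library. Tenocyte-like cells held 571, 181 and 23.4 CPM in Gli1+ libraries and 376, 248 and 9.81 CPM in Gli1- libraries, while all other mesenchymal cells held 19.9, 2.57 and 3.99 CPM and 4.13, 2.89 and 4.33 CPM. For the Gli1+ sort the log2 ratio was 4.84, 6.14 and 2.55. For the Gli1- sort it was 6.51 (6.25 to 6.78), 6.42 and 1.18. The size of these ratios depended on how the cells were chosen. With joint clustering the Gli1- ratio at 21 dpi turned its direction. In uninjured tendon the level outside tenocyte-like cells rested on a few chondrocyte- and bone-like cells: 31 such cells carried 324 of 335 UMIs in the Gli1+ library (487 CPM) and 18 carried 102 of 144 in the Gli1- library (396 CPM). Without this type, a choice made after seeing the data, the other mesenchymal cells of uninjured tendon held 0.682 and 1.21 CPM and the ratios were 9.71 and 8.28. At 21 dpi chondrocyte- and bone-like cells held 15.5 CPM in the Gli1+ library, and in the Gli1- library they had the highest level of any type, at 17.2 CPM (13.9 to 21.1) with 92 of the 129 UMIs of other mesenchymal cells. Tenocyte-like cells held between 72.1% and 88.5% of all Col22a1 UMIs of a library. Col22a1 was among the leading genes of cluster 7 of Gli1+ cells and cluster 12 of Gli1- cells, though it took no part in forming the clusters.

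Of the 10 genes, Col22a1 had the largest decrease in mesenchymal cells in 3 of the 4 comparisons with uninjured tendon; at 7 dpi in Gli1- cells that of Col15a1 was larger. In mesenchymal cells it was at 177, 12.6 and 10.2 CPM in Gli1+ cells and at 25.1, 12.8 and 7.66 CPM in Gli1- cells. Against uninjured cells the log2 ratios were −3.82 (−3.92 to −3.71) and −4.12 (−4.23 to −4.01) in Gli1+ cells and −0.97 and −1.71 in Gli1- cells. These values depended on the choice of cells and on their weighting. With cells taken by their own UMIs instead of by cluster the Gli1- values were 1.06 (17.4 against 8.36 CPM) and −0.34, and with per-cell means 0.12 and −0.72. The 7 dpi value of that sort thus turned its direction under both. The Gli1+ values kept their direction but were smaller, at −2.39 and −2.93 with per-cell means and −3.36 at 21 dpi with cells taken by their own UMIs. Within tenocyte-like cells the log2 ratios to uninjured were −1.65 and −4.61 in Gli1+ and −0.60 and −5.26 (−5.43 to −5.09) in Gli1- cells. Of Gli1+ tenocyte-like cells thinned to 2000 UMIs, 16.8%, 16.3% and 3.11% had a Col22a1 UMI, a share that does not tell how many cells express the gene. A level of 74.2 CPM in uninjured Gli1+ mural-like cells stood beside a Col22a1 UMI in 0.909% of the thinned cells of that type.

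**Figure D2:**
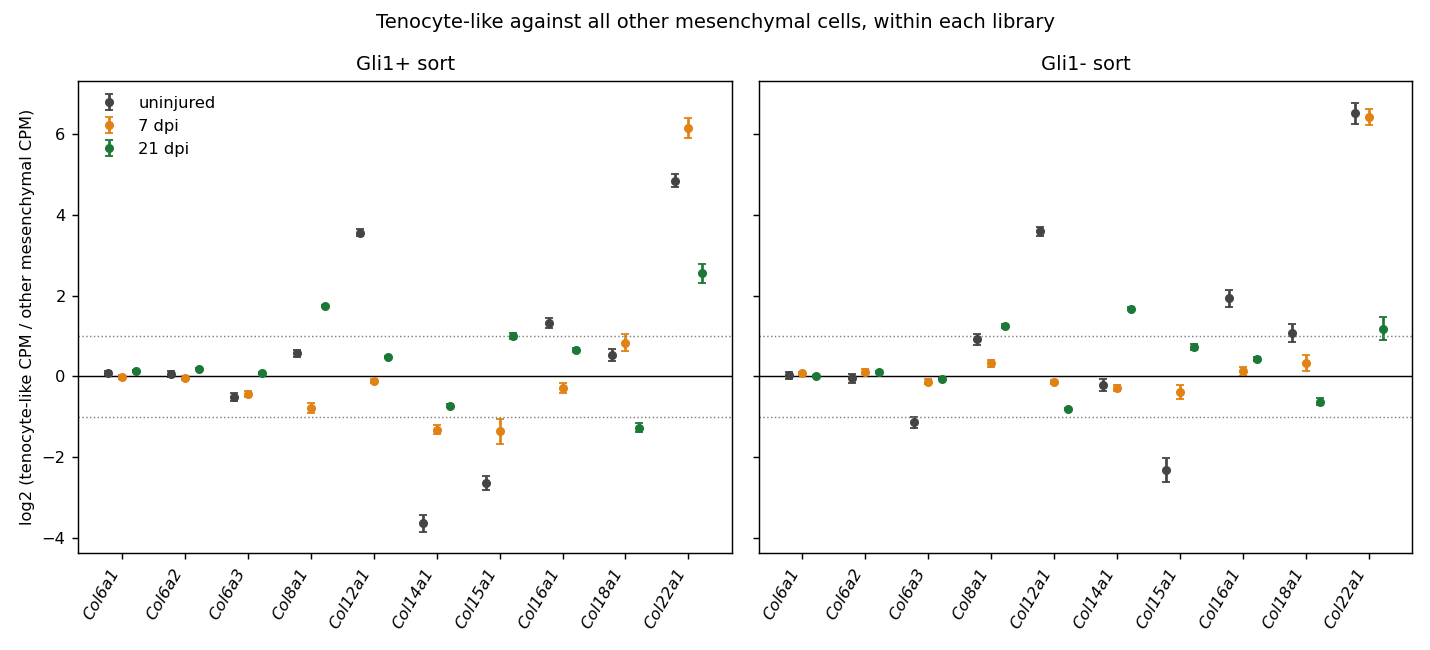
Log2 ratio of CPM in tenocyte-like over all other mesenchymal cells for the 10 genes (vertical axis) in each of the 6 libraries, with exact 95% counting intervals; dotted lines mark 2-fold. Col22a1 lies above 2-fold in every library, Col12a1 at 3.55 and 3.58 in uninjured tendon and at −0.13 in both sorts at 7 dpi, and Col6a1 and Col6a2 near 0.

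The tenocyte-like class was held by different clusters at different times, which bears on each value given for it. In Gli1+ cells 689 of 739 uninjured cells lay in cluster 7, 718 of 735 cells at 7 dpi in cluster 13 and 2257 of 2627 cells at 21 dpi in cluster 3, with Scx at 364, 493 and 190 CPM in these clusters. In Gli1- cells cluster 12 (Scx at 480 CPM) held 194, 234 and 187 cells and cluster 2 (Scx at 65 CPM) held 78, 234 and 4601 cells. With the comparison of tenocyte-like and other mesenchymal cells, 3 of 10 genes were more than 2-fold higher and 2 lower in uninjured Gli1+ cells (5.86% and 8.2% of all genes), 1 higher and 2 lower at 7 dpi (5.0% and 11%) and 2 higher and 1 lower at 21 dpi (2.24% and 8.42%). In Gli1- cells 4 were higher and 2 lower in uninjured tendon (6.77% and 9.32%), 1 was higher and none lower at 7 dpi (4.42% and 7.28%), and 3 were higher and none lower at 21 dpi (2.4% and 6.25%).

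Followed within single clusters, the direction of most differences was kept and several sizes were not. In cluster 7 of Gli1+ cells, which held 689 uninjured and 366 cells at 21 dpi, none of the 10 genes passed 2-fold (1.28% of all genes higher, 4.75% lower, 6.03% in either direction). Col22a1 went from 616 to 341 CPM there (log2 ratio −0.85, −0.98 to −0.73), Col14a1 from 27.7 to 34.8 CPM, Col12a1 from 959 to 760 CPM and Col6a1 from 508 to 791 CPM. In cluster 12 of Gli1- cells 4 of 9 measured genes were higher and 1 lower at 7 dpi (5.96% and 5.67% of all genes), and 5 of 10 higher and 1 lower at 21 dpi (3.52% and 3.54%). Col6a3 was at 69.3, 526 and 411 CPM, Col6a1 at 342, 1241 and 1043 CPM and Col14a1 at 31.6, 96.8 and 80.5 CPM, while Col12a1 was at 1026, 837 and 837 CPM and Col22a1 at 686, 322 and 176 CPM. The clusters that carried the class at 21 dpi were nearly without Col22a1, at 0.9 CPM in cluster 3 of Gli1+ cells and 5.5 CPM in cluster 2 of Gli1- cells. Kept to clusters with Scx of at least 300 CPM, a choice made after seeing the data, 0 rather than 8 genes passed 2-fold within Gli1+ tenocyte-like cells at 21 dpi. No share of all genes was set beside this recomputed count.

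Col8a1, the network-forming collagen of the set, was at 169, 237 and 334 CPM in Gli1+ and at 132, 199 and 309 CPM in Gli1- mesenchymal cells. The log2 ratio to uninjured was 0.49 and 0.99 (0.94 to 1.03) in Gli1+ cells and 0.59 and 1.22 (1.18 to 1.27) in Gli1- cells, and with TMM scaling the Gli1+ ratio at 21 dpi was 1.45. Tenocyte-like cells were the type with the most Col8a1 in both 21 dpi libraries. They held 220, 142 and 639 CPM in Gli1+ cells, against 148, 242 and 191 CPM in other mesenchymal cells. The 21 dpi log2 ratio came to 1.74 (1.71 to 1.78) for Gli1+ cells and 1.25 (1.20 to 1.29) for Gli1- cells. This level belonged to the low-Scx clusters 3 and 2, at 671 and 406 CPM, whereas clusters 7 and 12, which held most tenocyte-like cells of uninjured tendon, held 186 and 170 CPM at 21 dpi. With Scx of at least 300 CPM the ratio became −0.82 and −0.87.

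After injury the multiplexins Col15a1 and Col18a1 were higher in blood endothelial-like and mural-like cells than in tenocyte-like cells, which did not hold for every such pair in uninjured tendon. There tenocyte-like cells held more Col18a1 than blood endothelial-like cells (90.3 against 46.7 CPM in Gli1+ and 97.4 against 21.8 CPM in Gli1- libraries) and more Col15a1 than mural-like cells (43.4 against 18.6 and 44.6 against 24.3 CPM). In the Gli1- library their Col18a1 level also stood above that of mural-like cells (97.4 against 78.6 CPM), but the counting intervals overlapped. Promoter windows of Col15a1 and Col18a1 are shown because the levels of these genes parted between the mesenchymal sum and vessel cells after injury. Single mesenchymal clusters held more Col15a1 than the vessel types, as given below. Capitals again mark GGGCGG on either strand. The Col15a1 window is chr4:47207762-47208011 on the plus strand with 53.6% GC, and the Col18a1 windows are chr10:77166531-77166780 and chr10:77113706-77113955 on the minus strand with 62% and 57.6% GC.

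Col15a1: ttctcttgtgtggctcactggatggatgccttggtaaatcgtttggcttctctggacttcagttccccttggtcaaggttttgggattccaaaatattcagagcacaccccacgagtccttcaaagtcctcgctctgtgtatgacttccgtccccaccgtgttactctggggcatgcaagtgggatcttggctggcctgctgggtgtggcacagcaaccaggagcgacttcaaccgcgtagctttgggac

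Col18a1, first start: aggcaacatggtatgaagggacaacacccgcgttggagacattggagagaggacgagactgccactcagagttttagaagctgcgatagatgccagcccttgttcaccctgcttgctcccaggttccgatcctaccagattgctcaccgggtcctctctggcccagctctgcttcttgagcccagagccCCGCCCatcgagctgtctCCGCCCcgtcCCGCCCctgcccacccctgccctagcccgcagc

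Col18a1, second start: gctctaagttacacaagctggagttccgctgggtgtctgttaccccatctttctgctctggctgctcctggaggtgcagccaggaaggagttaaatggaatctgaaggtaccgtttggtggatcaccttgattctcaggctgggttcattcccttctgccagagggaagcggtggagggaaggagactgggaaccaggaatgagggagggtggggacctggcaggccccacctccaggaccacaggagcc

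The first Col18a1 window held 3 GC boxes, at 61 to 56, 43 to 38 and 33 to 28 bases before the start, and the second Col18a1 window and the Col15a1 window held none.

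Col15a1 was lower in mesenchymal cells after injury, at 206, 53.6 and 64.2 CPM in Gli1+ cells and at 211, 98.9 and 81.6 CPM in Gli1- cells. Against uninjured cells the log2 ratios were −1.95 (−2.01 to −1.88) and −1.69 (−1.74 to −1.63) in Gli1+ cells and −1.09 and −1.37 in Gli1- cells; at 7 dpi in Gli1- cells it was −0.54 with cells taken by their own UMIs and −0.36 with per-cell means. Its highest uninjured level was in the remaining mesenchymal cells, at 1115 CPM for Gli1+ and 349 CPM for Gli1- cells, of which cluster 17 of Gli1+ cells held 1490, 892 and 799 CPM and cluster 7 of Gli1- cells 875, 467 and 677 CPM. These clusters numbered 234, 180 and 75 cells and 466, 1268 and 106 cells, of 2467, 7003 and 8063 Gli1+ and 5770, 7992 and 7495 Gli1- mesenchymal cells. In uninjured tenocyte-like cells Col15a1 was at 43.4 and 44.6 CPM, with log2 ratios to other mesenchymal cells of −2.65 and −2.31. At 21 dpi tenocyte-like cells held 97.3 and 96.5 CPM and these ratios were 0.998 (0.92 to 1.08) and 0.72. The Gli1+ value turned to −0.25 at clustering resolution 0.3 and to −0.45 with tenocyte-like clusters of at least 300 CPM of Scx, and the Gli1- value to −0.30 with per-cell means.

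In blood endothelial-like cells, named from Cdh5, Pecam1, Kdr, Flt1, Emcn and Vwf, Col15a1 was at 50.7, 247 and 382 CPM in Gli1+ and at 58.8, 383 and 475 CPM in Gli1- libraries. The log2 ratios to uninjured were 2.29 and 2.91 for the Gli1+ sort and 2.70 and 3.01 for the Gli1- sort. In mural-like cells, named from Rgs5, Acta2, Myh11, Notch3, Kcnj8 and Cspg4, it was at 24.3, 196 and 134 CPM in Gli1- libraries, and its log2 ratios were 2.62 and 2.58 for the Gli1+ sort and 3.01 and 2.46 for the Gli1- sort. Col15a1 was thus higher after injury in both vessel types. Single fibroblast classes did not follow the mesenchymal sum: tenocyte-like cells had log2 ratios to uninjured of −0.998 at 7 dpi and 1.17 at 21 dpi (Gli1+) and of 0.78 and 1.11 (Gli1-), and stem cell-like cells had −0.23 and −1.38 (Gli1+), then 0.34 and −0.14 (Gli1-). The share of a library's Col15a1 UMIs in blood endothelial-like cells was 7.28%, 11.9% and 37.3% in Gli1- cells.

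Col18a1, whose C-terminal fragment is endostatin, changed less than 2-fold in the mesenchymal sum in 3 of 4 comparisons, with Gli1+ levels of 70.5, 30.8 and 54.1 CPM and Gli1- levels of 49.2, 40.7 and 56.3 CPM. Only the Gli1+ value at 7 dpi passed 2-fold, with a log2 ratio of −1.19 (−1.29 to −1.10), and it was −0.89 with TMM scaling. The Gli1+ ratio at 21 dpi was −0.38 and turned to 0.08 with TMM scaling. The classes within that sum differed. Tenocyte-like cells had ratios to uninjured of −0.78 and −1.71 (Gli1+) and of −0.94 and −1.07 (Gli1-), while Gli1+ stem cell-like cells were at 1.04 at 21 dpi. The remaining Gli1+ mesenchymal cells held 324, 28.9 and 104 CPM and the Gli1- ones 67.2, 40.4 and 82.6 CPM. In mural-like cells Col18a1 was at 101, 426 and 823 CPM in Gli1+ libraries and at 78.6, 641 and 752 CPM in Gli1- libraries. The log2 ratios were 2.08, 3.03, 3.03 and 3.26. In blood endothelial-like cells it was at 46.7, 367 and 476 CPM and at 21.8, 369 and 595 CPM, with log2 ratios of 2.97, 3.35, 4.08 and 4.77. Lymphatic endothelial-like cells of the Gli1- libraries held 116, 419 and 548 CPM and Schwann-like cells 109, 396 and 476 CPM, so Col18a1 was higher after injury in each of these 4 cell types. Epidermal-like cells of the Gli1+ libraries held 90.4, 60.6 and 88.0 CPM.

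After injury mesenchymal cells held a lower and mural-like cells a higher share of the Col18a1 UMIs. Mesenchymal cells held 71.5%, 56.4% and 42.6% of the Gli1+ Col18a1 UMIs and 72.8%, 51.5% and 23.8% of the Gli1- ones. Mural-like cells held 3.28%, 9.63% and 38.2% and 11.1%, 24.9% and 38.7%. At 21 dpi mural-like cells were the type with the highest Col18a1 level in both sorts, above blood endothelial-like cells by their counting intervals. The whole-library log2 ratio of 1.51 in Gli1+ cells at 21 dpi stood against −0.38 in the mesenchymal cells of the same libraries.

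The vessel comparisons were chosen after their values were seen, and the make-up of the endothelial and mural classes changed as well. In Gli1- libraries cluster 1 held 3387, 726 and 828 endothelial cells and cluster 9 held 129, 249 and 795. Col18a1 was higher inside both: cluster 1 held 18.4, 96.1 and 179 CPM and cluster 9 held 57.1, 576 and 694 CPM. For Col15a1 these levels were 44.8, 206 and 136 CPM in the first and 202, 516 and 557 CPM in the second. In mural cluster 8 of Gli1- cells Col18a1 was at 187, 741 and 771 CPM and Col15a1 at 6.84, 192 and 136 CPM. Differences of the set were broad in vessel cells: in mural-like cells 7 of 7 measured genes were higher at 7 dpi in Gli1+ cells (13.4% of all genes, with 18.7% lower) and 8 of 9 in Gli1- cells (7.27% and 11%). At 21 dpi the mural counts were 7 of 8 (11.4% and 13.8%) and 7 of 9 (8.72% and 14.7%). None of the measured genes was lower at either time. Col22a1 had too few summed UMIs to be among them. Its level in Gli1+ mural-like cells was 74.2 CPM (56.1 to 96.4) before injury, 13.6 CPM (7.01 to 23.7) at 7 dpi and 1.70 CPM (0.733 to 3.35) at 21 dpi. The Gli1+ mural counts thus leave out a gene with a lower level after injury. In Gli1- mural-like cells Col22a1 was at 1.41, 3.29 and 1.95 CPM. In blood endothelial-like cells the counts at 7 dpi were 6 of 7 (7.31% of all genes higher, 10.8% lower) and 8 of 9 (7.37% and 6.81%), with none lower, and at 21 dpi 5 of 6 and 5 of 9 were higher and 1 lower in each sort (7.4% and 10.7%, then 8.74% and 11.8%), that 1 being Col8a1. The general level of the set in non-fibroblast cells moved with the 7 dpi endothelial counts, and its part in them and in the 7 dpi mural counts was not tested. In Gli1- libraries at 7 dpi Col14a1 was at 54.6 CPM in mural-like cells, beside 61.3 CPM in blood endothelial-like cells. The median of the 10 genes in endothelial cells was 24.6% of the mesenchymal level in Gli1+ and 18.5% in Gli1- cells, against 4.62% and 9.51% in uninjured and 4.95% and 7.94% at 21 dpi, while T and NK-like cells of uninjured tendon held 0.503 to 4.03 CPM. Col6a1 in endothelial cells followed that course, at 17.6, 263 and 58.5 CPM in Gli1+ libraries, whereas Col15a1 and Col18a1 were higher at 21 than at 7 dpi. In mural-like cells Col6a1 remained at 714 CPM at 7 dpi and 767 CPM at 21 dpi in Gli1- libraries, from 109 CPM in uninjured tendon.

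**Figure D3:**
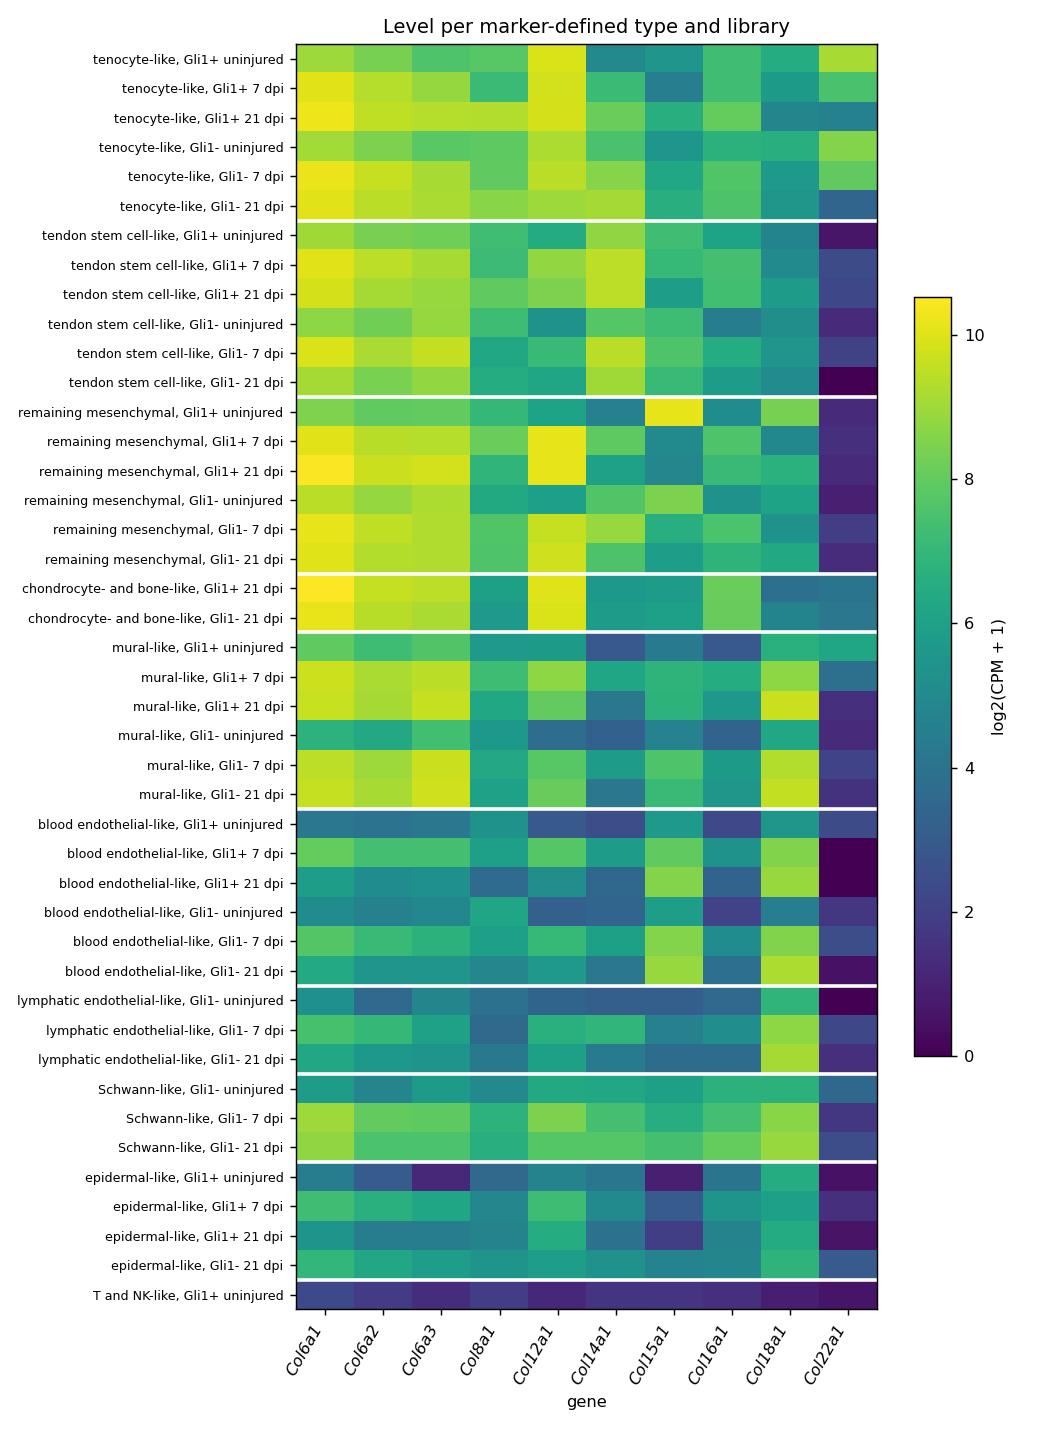
Level of the 10 genes (columns) in selected cell types of each library (lines of the heat map), with the colour giving log2(CPM + 1); types with under 50 cells in a library are not drawn. Collagen VI is high across mesenchymal types, Col12a1 in tenocyte-like cells of uninjured tendon (965 and 595 CPM), Col22a1 in tenocyte-like cells (571 CPM in uninjured Gli1+ tendon) and Col18a1 in mural-like and endothelial cells after injury.

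Before injury the sorts differed in 3 of the 10 genes by more than 2-fold within mesenchymal cells, all higher in Gli1+ cells (9.6% of all genes higher and 4.27% lower): Col12a1, Col16a1 and Col22a1. Col22a1 was at 177 against 25.1 CPM (log2 ratio 2.82, 2.72 to 2.92). These 3 genes were also more than 2-fold higher in tenocyte-like cells of both uninjured libraries, as was Col18a1 in the Gli1- library, which did not differ 2-fold between the sorts. Tenocyte-like cells were 739 of 2467 Gli1+ and 272 of 5770 Gli1- mesenchymal cells, and the part of this in the difference between the sorts was not tested. At 7 dpi no gene of the set differed by 2-fold between the sorts (2.95% and 1.22% of all genes), with log2 ratios from −0.88 for Col15a1 to 0.35 for Col12a1. At 21 dpi none did either (0.775% and 0.967%), with log2 ratios from −0.35 to 0.41. Taken within cells with Y-linked transcripts alone, the uninjured log2 ratios were 2.36 for Col12a1, 1.56 for Col16a1 and 2.76 for Col22a1. Col6a3 was lower in uninjured Gli1+ cells by just under 2-fold (−0.95). It passed 2-fold with TMM scaling, which subtracted 0.25 from the uninjured ratios.

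Within the tendon stem cell-like class, 4 of 9 measured genes were higher and none lower at 7 dpi in Gli1+ cells (8.74% and 13.0% of all genes), and likewise 4 of 9 in Gli1- cells (3.45% and 6.0%). At 21 dpi 4 of 10 were higher and 1 lower in Gli1+ cells (6.01% and 9.92%) and 2 of 9 higher and none lower in Gli1- cells (4.51% and 9.03%). Col12a1 and Col16a1 were higher at 7 dpi in both sorts, though the Gli1- Col12a1 level of 140 CPM stood beside 130 CPM in endothelial cells of that library. In Gli1+ cells Col6a1 (log2 ratio 1.06) and Col6a2 (1.11) joined them, and in Gli1- cells Col6a1 (1.17) and Col14a1 (1.68). The Gli1+ class lay in cluster 5 before injury (1388 cells), cluster 4 at 7 dpi (2058 cells) and cluster 2 at 21 dpi (3318 cells), and the Gli1- class in cluster 3 throughout, with 3610, 309 and 143 cells. Within tenocyte-like cells 4 genes were higher and 1 lower at 7 dpi in Gli1+ cells (7.67% and 14.0%), and 4 higher and none lower in Gli1- cells (4.46% and 4.71%). At 21 dpi 6 were higher and 2 lower (7.51% and 17.8%) and 4 higher and 2 lower (7.37% and 9.97%). The collagen VI genes and Col14a1 made up the higher genes at 7 dpi in both sorts.

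The related matrix genes around the set were counted in the same mesenchymal cells. Of 11 fibrillar collagen genes 7 and 9 were more than 2-fold higher in Gli1+ cells at 7 and 21 dpi and 10 at both times in Gli1- cells, which is 63.6% and 81.8% and then 90.9% of the list beside 12.9%, 7.27%, 13.6% and 11.6% of all genes. Col11a2 was lower at 7 dpi in Gli1+ cells (−2.79). Their median log2 ratios were 1.67, 1.47, 2.23 and 2.13, above those of the 10 genes of the set. Col1a1 had log2 ratios of 1.71, 1.80, 2.69 and 2.38 (Gli1+ 7 and 21 dpi, then Gli1-), Col3a1 of 3.34, 3.26, 2.59 and 2.13, and Col1a2 of 0.90, 1.01, 1.88 and 1.67. Col2a1, Col5a1, Col5a2, Col24a1 and Col27a1 were higher in both sorts at both times, and Col11a1 in both sorts at 21 dpi. The mesenchymal sum includes chondrocyte- and bone-like cells, which were 31 cells in uninjured and 306 in 21 dpi Gli1+ libraries, and 18 and 424 in Gli1- libraries. The part of these cells in the ratios was not tested. Col12a1 had the pattern closest to Col1a1 over the 52 groups (correlation 0.93), followed by Col1a2 (0.91), and Col16a1 to Col1a2 and Vkorc1 (0.90 each).

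Of the 23 other non-fibrillar collagens, 20 or 21 could be measured, of which 5, 7, 5 and 8 were higher and 10, 8, 9 and 9 lower. These are 23.8% to 40.0% higher, beside the same 7.27% to 13.6% of all genes, and 40.0% to 50% lower, beside 13.9% to 18.1% of all genes. Col4a1, a basement membrane collagen, had log2 ratios of −1.54, −1.03, −1.83 and −2.17 and Col4a2 of −1.39, −0.82, −1.26 and −1.57. Col4a3 and Col4a4 were lower at both times in both sorts, as Col15a1 was. Col9a2, a cartilage FACIT gene, had −0.56, 2.71, 1.80 and 5.15. Col7a1, the anchoring-fibril collagen, and Col9a3 were higher in all 4 comparisons, with Col7a1 at 4.30, 3.83, 3.01 and 4.61 from 1.70 and 0.595 CPM in uninjured cells. Col9a1 and Col10a1 were also higher at 21 dpi in both sorts, from 18 or fewer UMIs in the uninjured sums. The part of the chondrocyte- and bone-like cells in the collagen IX and X values was not tested. Col6a5 was higher and Col4a5 and Col20a1 lower in both sorts at 21 dpi, Col4a6 and Col6a6 were lower in both at 7 dpi, and Col17a1 was higher in Gli1+ and lower in Gli1- cells at both times.

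Among 18 partners and receptors of collagens VI and XII, 4, 4, 4 and 8 were higher and 9, 6, 5 and 5 lower, or 22.2% to 44.4% and 27.8% to 50% of a small list (all genes: 7.27% to 13.6% higher, 13.9% to 18.1% lower). The small proteoglycan Dcn was lower (−2.16, −1.02, −1.89 and −1.24) and Bgn higher (1.49, 1.53, 1.98 and 2.02), with Lum at 1.16, 2.18, 0.56 and 1.60. The collagen XII partner Tnxb was lower (−3.11, −2.05, −2.70 and −2.51) while Tnc was higher (3.94, 2.61, 6.06 and 4.96), as was Matn2. Antxr2, a receptor for collagen VI, and Itga1, a collagen receptor subunit, were lower at every time in both sorts. Fmod was lower in Gli1+ (−1.07) and higher in Gli1- cells (2.21) at 21 dpi. Of 14 microfibril genes 5, 3, 7 and 6 were higher and 2, 1, 1 and 2 lower, or 21.4% to 50% higher and 7.14% to 14.3% lower, the latter at or under the share of all genes. Mfap5 had log2 ratios of 0.79, 0.61, 0.78 and 0.51, Fbln2 of 0.43, −0.19, −0.09 and −0.84 and Fbn1 of −0.10, −0.40, 0.87 and 0.33. Mfap2, Mfap4 and Fbn2 were higher and Efemp1 lower in every comparison, and Efemp2 and Lox were higher in both sorts at 7 dpi.

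For the other genes of the set the closest patterns over the 52 groups were Kdelr3 and Col5a2 for Col6a1 (0.97 each), Kdelr3 (0.97) and Pcolce (0.96) for Col6a2, and Pcolce (0.96) and Nnmt (0.95) for Col6a3. Col8a1 was closest to Aspn (0.87) and Gpx8 (0.86), and Col14a1 to Mfap5 and Pi16 (0.93 each). Col15a1 was closest to Atp8b1 (0.77) and Plpp3 (0.75), Col18a1 to Nr2f6 and Ufd1 (0.75 each) and Col22a1 to Ptx4 (0.87) and Scube2 (0.81). These correlations describe groups drawn from the same 6 libraries and were not tested.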

How the data were processed

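The deposited matrices hold raw UMI counts per gene and cell barcode for 6 libraries made by the authors with Chromium 3′ v3 kits. The submitters' processing notes name Cell Ranger 3.1.0, STAR and mm10, whereas the matrix headers name Cell Ranger 9.0.0. Since 1735 of 33696 gene IDs were absent from GENCODE M21, no gene coordinates were attached to the counts, and promoter windows are credited to RefSeq alone.

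Cells were kept with at least 200 genes, 1000 UMIs, a log10 genes per UMI ratio of 0.7, and at most 5% mitochondrial and 5% hemoglobin UMIs. Likely doublets (0.8% per 1000 cells, by simulated doublets) were removed. Each sort was clustered on its own with scanpy 1.11.5 (2000 variable genes without the 10 collagens and the markers, 30 principal components, 20 neighbours, leidenalg 0.10.2 at resolution 0.5). Mesenchymal clusters were those named as tenocyte, tendon stem cell, chondrocyte or bone, at any Pdgfra level, and unnamed clusters with Pdgfra of at least 100 CPM. A cluster was named from at least 3 markers raised 2-fold, and leading genes had to be present in 25% of its cells, a rule chosen after seeing the data. UMIs were summed per library and class (at least 50 cells), levels are CPM with exact Poisson 95% intervals, and ratios carry exact binomial intervals of the counts given their sum. All genes with at least 100 summed UMIs gave the background shares. The labels give 1 library per sort and time, pooled from 8 mice, so no difference between conditions was tested. Alternatives were TMM factors (edgeR 4.0.16), other resolutions, joint clustering, gates on single cells, per-cell means and, added after seeing the data, sex-split cells, Scx-limited classes and sums without chondrocyte- and bone-like cells. UMI interval limits cover counting error only.

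The genes named were the 10 collagens, the 2 genes most correlated with each among those with a mean of at least 10 CPM, and, from 4 lists, the 3 with the most UMIs and those past 2-fold in both sorts. The collagens and lists were chosen with earlier results of these data known, and the vascular, single-cluster and 21 over 7 dpi comparisons after their values were seen. Python 3.11.15, numpy 2.4.6, scipy 1.17.1 and R 4.3.3 were used. The ratios and their intervals were tested on simulated counts that held counting error only, without differences between mice or cells.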

Additional observations from a re-analysis of the deposited data

Results flagged for a closer look

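The difference between tenocyte-like and all other mesenchymal cells turned its direction between uninjured and injured tendon for 5 of the 10 genes with 1 of the values past 2-fold. No share of all genes was set beside this count, so it cannot be read as a trait of the set. With 1 library per condition none of these differences was tested, and different clusters held the tenocyte-like class at each time. For Col12a1 the log2 ratio was 3.68 lower at 7 dpi than in uninjured Gli1+ cells (3.55 against −0.13), 3.72 lower at 7 dpi in Gli1- cells (3.58 against −0.13) and 4.38 lower at 21 dpi in Gli1- cells (3.58 against −0.80). For Col16a1 it was 1.61 lower at 7 dpi in Gli1+ cells (1.32 against −0.29). For Col15a1 the uninjured minus 21 dpi difference was −3.64 in Gli1+ cells (−2.65 against 0.998) and −3.03 in Gli1- cells (−2.31 against 0.72). For Col18a1 it was 1.80 in Gli1+ cells (0.53 against −1.27) and 1.70 in Gli1- cells (1.07 against −0.63). For Col14a1 it was −1.89 in Gli1- cells (−0.22 against 1.67). Several of these turns depended on how the cells were chosen. With cells taken by their own Tnmd and Scx UMIs the injured values were 0.40, 0.98 and 0.78 for Col12a1 (Gli1+ 7 dpi, Gli1- 7 dpi, Gli1- 21 dpi), 0.18 for Col16a1 and −0.74 for Col14a1, so none of these 5 turned. The Col12a1 values of Gli1- cells were also above 0 at resolution 1.0 (0.24 and 0.20) and with the Scx limit (0.15 and 0.38), and at 7 dpi with per-cell means (0.14). Col15a1 at 21 dpi became −0.25 at resolution 0.3 and −0.45 with the Scx limit in Gli1+ cells and −0.30 with per-cell means in Gli1- cells. Col18a1 at 21 dpi in Gli1+ cells became 0.47 at resolution 0.3 and 0.59 with the Scx limit, and its uninjured Gli1+ value −0.41 with per-cell means. Col14a1 at 21 dpi in Gli1- cells became −0.35 at resolution 1.0 and −2.33 with the Scx limit. Col18a1 in Gli1- cells turned under each alternative.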

How the results depend on the processing

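Of 157 counts of genes past 2-fold recomputed under alternatives, 143 stayed within 1.5 times the reported count; of 755 alternative values of 174 ratios past 2-fold, 692 stayed past it in the same direction, 53 came under it and 10 reversed. Of 760 alternative values of ratios under 2-fold, 102 turned direction, among them Col22a1 in Gli1- mesenchymal cells at 7 dpi (1.06 with cells taken by their own UMIs, 0.12 with per-cell means). The cause was not tested. No share of all genes was set beside the recomputed counts, so they cannot be read against a background. Gli1+ mesenchymal cells at 7 dpi with Y-linked transcripts alone gave 5 genes rather than 8. Tenocyte-like against other mesenchymal cells gave, for Gli1- cells at 7 dpi, 4 genes with cells taken by their own UMIs, 2 with per-cell means and 3 with Scx of at least 300 CPM rather than 1, and at 21 dpi 1 with joint clustering rather than 3. Within tenocyte-like cells the count was 0 rather than 8 with the Scx limit (Gli1+, 21 dpi) and 7 rather than 4 with joint clustering (Gli1-, 7 dpi). Within stem cell-like cells at 21 dpi it was 3 rather than 5 (Gli1+) and 5 rather than 2 (Gli1-), both with joint clustering and at resolution 1.0. In endothelial cells it was 3 rather than 6 at resolution 1.0 (Gli1+, 7 dpi), and 3 with joint clustering and 0 at resolution 1.0 rather than 6 (Gli1+, 21 dpi). The count of 0 held neither Col15a1 nor Col18a1. The whole-library Col18a1 ratio in Gli1+ cells at 21 dpi turned to −0.38 in mesenchymal cells. In tenocyte-like over other cells of the Gli1+ library at 21 dpi, Col8a1 turned to −0.87 and Col18a1 to 0.47 at resolution 0.3, and to −0.82 and 0.59 with the Scx limit. In the Gli1- library at 21 dpi, Col14a1 turned to −0.35 at resolution 1.0, −0.74 with cells taken by their own UMIs and −2.33 with the Scx limit, Col22a1 to −0.42 with joint clustering and Col8a1 to −0.87 with the Scx limit. TMM scaling moved all mesenchymal log2 ratios to uninjured up, by subtracting an offset of −0.30 (7 dpi) and −0.46 (21 dpi) for Gli1+ cells, −0.10 and −0.18 for Gli1- cells, and subtracted 0.25 from Gli1+ over Gli1- in uninjured tendon. No value could be had for the sexes that a library lacked, for Gli1+ cells at 7 dpi taken by their own UMIs (2 cells) or for stem cell-like cells at 7 dpi with joint clustering in Gli1+ cells (31 cells). No paired analysis was run. Each sort and time had 1 library, with no replicate numbers in the labels, and a fit over all 6 libraries with sort and time as terms was not run either. Depth limits the genes at a few CPM, such as Col22a1 outside tenocyte-like cells.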
